A study of Homo sapiens with 6 samples.

Results

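The fibrillar collagen chains are the polypeptides whose rod-like helices pack side by side into the banded fibrils of connective tissue and scar. The 10 chains described here were taken by gene symbol and belong to collagen types I, II, III, V, XI, XXIV and XXVII. All 10 were found among the 24789 genes and assembled loci of the count table. They were measured by RNA sequencing in LX-2, a human cell line derived from hepatic stellate cells, the liver cells that turn into matrix-producing myofibroblasts after injury. One group of 3 libraries came from LX-2 cells that received an AEBP1 siRNA at 50 nM (genotype AEBP1 knockdown in the labels), and the other group of 3 from LX-2 cells that received a scrambled siRNA at 50 nM (genotype WT). Both groups had the same lipid transfection reagent, the same medium with serum and 48 hours of culture. All cells are of a single immortalised line, and the labels do not say whether the libraries of a group are separate transfections, so the p-values measure the spread between these libraries, which may be technical.

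Alpha chains wind around each other to form each collagen molecule, and the choice of chains decides the type. Type I, the bulk of liver scar, is usually built from COL1A1 and COL1A2 products together, although the COL1A1 chain can also form a molecule on its own. Type III is made of COL3A1 chains alone, and type V, from COL5A1, COL5A2 and sometimes COL5A3, starts and limits the growth of type I fibrils. Types II and XI are best known from cartilage, and types XXIV and XXVII are minor chains with shorter helices. AEBP1, the siRNA target, encodes a secreted protein that binds fibrillar collagen, and the comparison asks what its siRNA does to the transcripts of these cells.

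Total counts ran from 34433510 to 49432960 per library. The level of AEBP1 itself went against the label in replicate 3 of both groups. It was 29.7, 27.7 and 48.3 CPM (counts for each 1000000 of the library, after scaling) in libraries labelled AEBP1 siRNA 1, 2 and 3, against 53.6, 48.7 and 25.1 CPM in those labelled scrambled 1, 2 and 3. Its fold change was -0.269 on the log2 scale (SE 0.305, edgeR adjusted p = 0.991). Groups are therefore named as labelled throughout, and the fold change of each chain is also given without replicate 3 of both groups where it could be fitted. The library labelled AEBP1 siRNA 1 stood apart on the first principal component, which held 34.8% of the variance, with a score of -65.9 where the other libraries lay between 5.74 and 17.3. Stellate and mesenchymal markers were led by VIM, the intermediate filament of mesenchymal cells, at 552 FPKM (fragments per kilobase of transcript, scaled to library size, as deposited). LRAT, which stores retinoids in quiescent stellate cells, had 0 counts, and DES, the muscle-type filament of stellate cells, had 12 counts over the 6 libraries. Summed FPKM of the 13 markers was 797 to 1012 in libraries labelled AEBP1 siRNA and 751 to 915 in those labelled scrambled. The hepatocyte markers ALB and TTR had 4 and 0 counts over all libraries, while SERPINA1 of the same list was at 3.04 FPKM, and the 6 genes summed to 2.11 to 3.77 FPKM in libraries labelled AEBP1 siRNA and 2.33 to 4.14 FPKM in those labelled scrambled. The leukocyte marker PTPRC had 6 counts, while CD68 and CD14 of the same list were at 9.93 and 0.942 FPKM, and the 5 genes summed to 10.6 to 12.4 FPKM in libraries labelled AEBP1 siRNA and 9.11 to 11.3 FPKM in those labelled scrambled.

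LX-2 cells used the fibrillar chains very unequally. Per transcript length, COL1A1 made up 65.7% to 69.9% of the summed FPKM of the 10 chains in every library, COL5A1 15.4% to 19.2% and COL5A2 10.3% to 15.1%. The other 7 chains were each at or below 1.91%. The 10 chains together had 280, 290 and 305 FPKM in libraries labelled AEBP1 siRNA 1, 2 and 3, against 303, 313 and 300 FPKM in those labelled scrambled 1, 2 and 3. The summed level thus overlapped between the groups, and the chains took 0.221% to 0.246% of all counts.

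**Figure D1:**
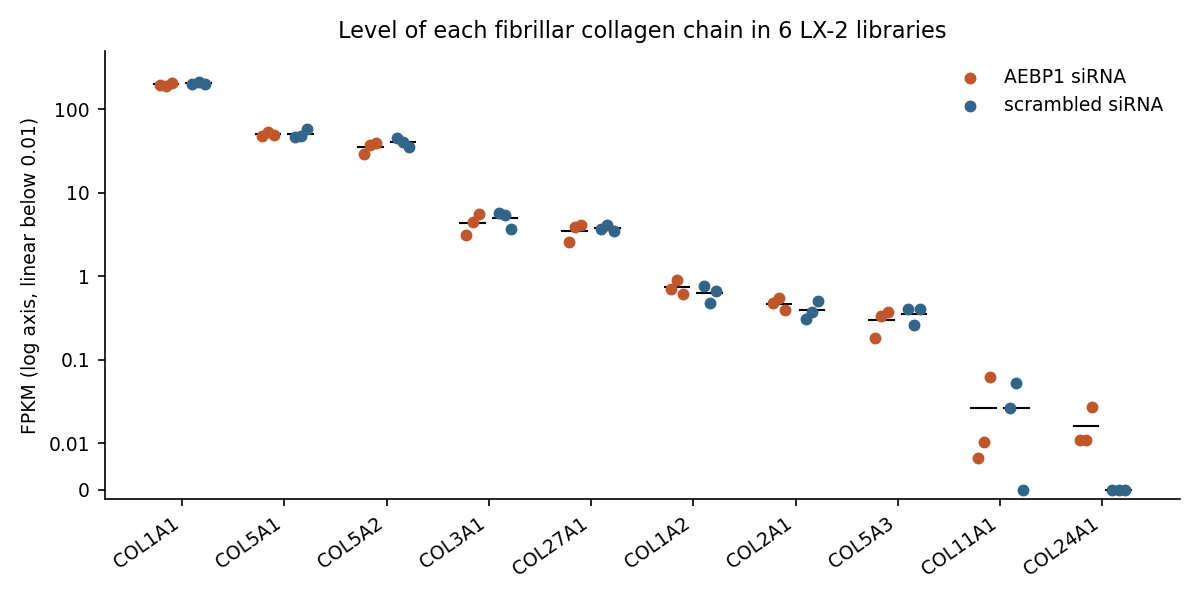
FPKM of each fibrillar collagen chain in each library (points; log axis, linear below 0.01 FPKM), with AEBP1 siRNA left of scrambled siRNA and a bar at the mean of each group's 3 libraries. COL1A1 lies near 200 FPKM (mean 201), COL5A1 and COL5A2 near 50.4 and 37.8, and COL24A1 is at 0 in all 3 scrambled libraries.

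The order of the levels was COL1A1, COL5A1, COL5A2, COL3A1, COL27A1, COL1A2, COL2A1, COL5A3, COL11A1 and COL24A1 by mean FPKM over the 6 libraries. The first 3 were each above the next chain in every library, with ranges that did not touch. COL3A1, at 3.16 to 5.8 FPKM, overlapped in range with COL27A1, at 2.6 to 4.1 FPKM, although it was the higher of the pair within each of the 6 libraries. COL1A2 was above COL2A1 in 6 of 6 libraries with overlapping ranges of 0.476 to 0.903 and 0.307 to 0.549 FPKM. COL2A1 was above COL5A3 in 5 of 6 libraries. COL11A1 and COL24A1, with means of 0.0265 and 0.00819 FPKM, could not be ordered, since COL11A1 was the higher in only 3 libraries.

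None of the 9 chains that could be tested was called between the labelled groups. With edgeR's quasi-likelihood test over 16250 genes, 0 of the 9 had an adjusted p under 0.05. Over all genes tested, 0.00615% were called. At an unadjusted p under 0.05 there were 0 of the 9, beside 216 of the 16250 genes. Few genes passed at either threshold, so 0 of 9 does not set the chains apart. DESeq2 and limma-voom also called 0 of the 9, where they called 0.0277% and 0.0123% of all genes. Each had 0 of the 9 at an unadjusted p under 0.05, and their share of all genes there is not given. Without replicate 3 of both groups, 0 of 8 chains tested were called, beside 0.00614% of all genes, and 0 of 9 were called, beside 1.46%, when AEBP1 siRNA 1 was dropped too. Estimates were higher in libraries labelled AEBP1 siRNA for 3 chains and lower for 6, with a median log2 fold change of -0.058, beside -0.0023 over all genes tested. The tenth chain, COL24A1, had too few counts to enter the test. The edgeR adjusted p was 0.991 for 8 of the 9 chains and 0.999 for COL11A1.

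**Figure D2:**
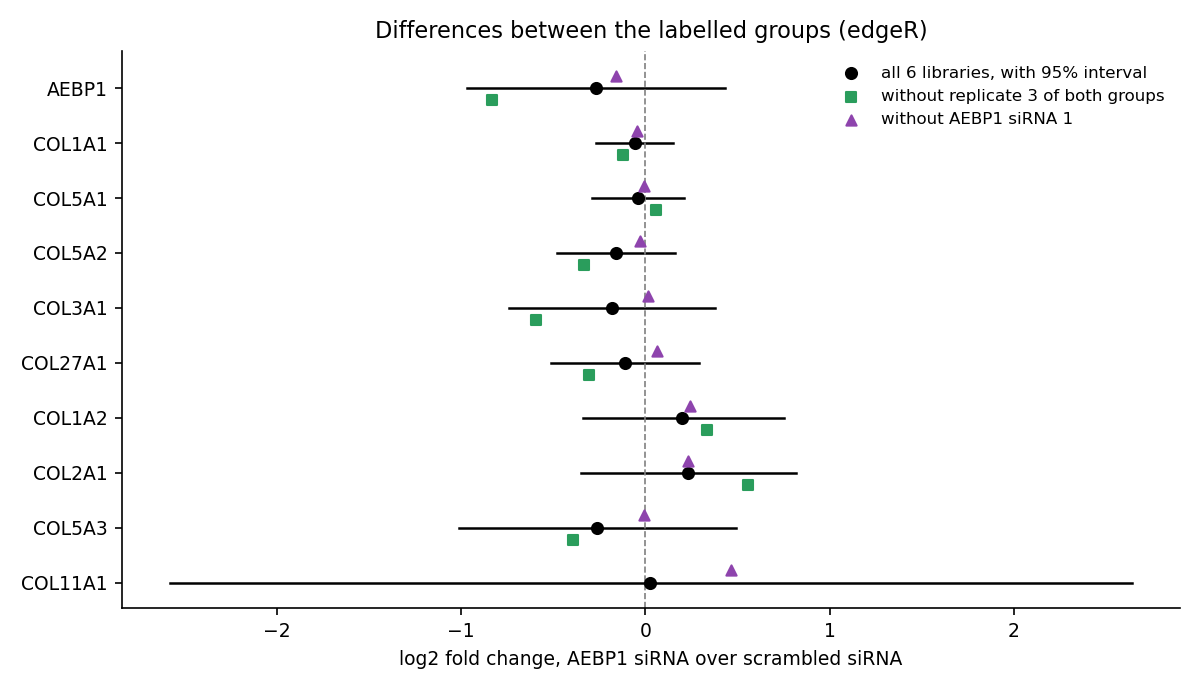
Log2 fold change of AEBP1 and the 9 tested chains, AEBP1 siRNA over scrambled siRNA, from edgeR: circles with 95% intervals use all 6 libraries, squares leave out replicate 3 of both groups, and triangles leave out AEBP1 siRNA 1. Every interval from the 6 libraries spans 0. COL11A1 has no square because it did not pass the filter on low counts there.

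COL1A1 (ENSG00000108821), on chromosome 17, was the steadiest of the chains. It had 1462, 1413 and 1573 CPM in libraries labelled AEBP1 siRNA 1, 2 and 3, against 1515, 1617 and 1496 CPM in those labelled scrambled 1, 2 and 3. The groups overlapped, and the highest library was 1.14-fold above the lowest. The estimate for the groups was a log2 fold change of -0.058 (SE 0.0903), with bounds at 95% confidence of 0.832-fold and 1.11-fold. Only 9.86% of genes tested with a mean of at least 5 CPM had a narrower range over the 6 libraries. Without replicate 3 of both groups the log2 fold change was -0.124 (edgeR adjusted p = 0.967).

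COL1A2 (ENSG00000164692), on chromosome 7, encodes the partner chain of type I collagen, and its transcript was scarce in this line. It had 0.698, 0.903 and 0.619 FPKM in libraries labelled AEBP1 siRNA 1, 2 and 3, against 0.773, 0.476 and 0.67 FPKM in those labelled scrambled 1, 2 and 3. These levels rest on 147, 204 and 158 counts in libraries labelled AEBP1 siRNA and on 195, 143 and 179 counts in those labelled scrambled. Per transcript length, the COL1A1 level was 280, 211 and 332 times the COL1A2 level in libraries labelled AEBP1 siRNA 1, 2 and 3, and 258, 449 and 296 times in those labelled scrambled 1, 2 and 3. The imbalance was thus present in all 6 libraries, and its size overlapped between the groups. The log2 fold change of COL1A2 was 0.20 (SE 0.237, 95% interval -0.34 to 0.75), and 0.337 without replicate 3 of both groups (edgeR adjusted p = 0.967). It was 0.0249 without scrambled 2, the lowest library, and 0.0429 without AEBP1 siRNA 2, the highest.

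The type V chains COL5A1 and COL5A2 followed COL1A1 in abundance. COL5A1 (ENSG00000130635), on chromosome 9, the chain found in nearly all type V molecules, had 453, 494 and 471 CPM in libraries labelled AEBP1 siRNA 1, 2 and 3, against 451, 459 and 547 CPM in those labelled scrambled 1, 2 and 3. The highest value, in scrambled 3, was 1.21-fold above the lowest, in scrambled 1. Its log2 fold change was -0.038 (SE 0.108, 95% interval -0.29 to 0.21). The sign turned without replicate 3 of both groups, to 0.0594, and without scrambled 3 alone, to 0.0565 (edgeR adjusted p = 0.967 and 1).

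COL5A2 (ENSG00000204262), the second chain of the common type V molecule, had 226, 289 and 320 CPM in libraries labelled AEBP1 siRNA 1, 2 and 3, against 327, 321 and 285 CPM in those labelled scrambled 1, 2 and 3. AEBP1 siRNA 1 was the lowest of the 6, and the groups overlapped. Its log2 fold change was -0.16 (SE 0.14, 95% interval -0.48 to 0.16). Leaving out replicate 3 of both groups gave -0.332 (edgeR adjusted p = 0.967), and leaving out AEBP1 siRNA 1 alone gave -0.0301. The ratio of COL5A1 to COL5A2 was 1.67, 1.43 and 1.23 by FPKM in libraries labelled AEBP1 siRNA 1, 2 and 3, against 1.03, 1.2 and 1.61 in those labelled scrambled 1, 2 and 3.

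One of these FPKM values did not follow its count. Counts per FPKM of COL5A2, relative to those of COL1A1 in the same library, were 0.941 in scrambled 1 and 1.05 to 1.06 in the other 5 libraries. The FPKM of 45.7 in scrambled 1 is thus higher for its 13428 counts than in the other libraries, and by CPM the COL5A1 to COL5A2 ratio in scrambled 1 was 1.38, next to 1.43 in scrambled 2. For COL1A2, COL2A1 and COL3A1 the same quantity varied by less than 0.01 between libraries.

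COL5A3 (ENSG00000080573), on chromosome 19, the third type V chain, stood far below COL5A1. It had 44, 86 and 111 counts in libraries labelled AEBP1 siRNA 1, 2 and 3, against 117, 90 and 124 counts in those labelled scrambled 1, 2 and 3. In FPKM, the level of COL5A1 was 116 to 264 times that of COL5A3. The log2 fold change of COL5A3 was -0.26 (SE 0.327, 95% interval -1.01 to 0.49), and without AEBP1 siRNA 1, its lowest library, it was -0.00606. Leaving out replicate 3 of both groups gave -0.392 (edgeR adjusted p = 0.967). Exons of an antisense gene, AC008742.1, overlap COL5A3, and the sources used here do not give the strand setting of the counting, so reads of the pair cannot be told apart.

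As the 2 type V chains that lay furthest apart in level, COL5A1 and COL5A3 are shown with the DNA just upstream of their RefSeq starts (GRCh38.p14, positions -250 to -51 from the start, 200 bases each, written 5′ to 3′ on the gene's strand). The first is chr9:134641553-134641752 on the plus strand and the second chr19:10010555-10010754 on the minus strand. Capitals mark GC boxes, searched as GGGCGG or CCGCCC on the other strand, and CCAAT boxes, searched as CCAAT or ATTGG on the other strand.
COL5A1: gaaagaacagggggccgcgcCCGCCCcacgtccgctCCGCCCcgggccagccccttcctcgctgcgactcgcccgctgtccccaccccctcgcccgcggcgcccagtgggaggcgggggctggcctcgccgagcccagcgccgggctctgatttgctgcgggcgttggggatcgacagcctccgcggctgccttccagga
COL5A3: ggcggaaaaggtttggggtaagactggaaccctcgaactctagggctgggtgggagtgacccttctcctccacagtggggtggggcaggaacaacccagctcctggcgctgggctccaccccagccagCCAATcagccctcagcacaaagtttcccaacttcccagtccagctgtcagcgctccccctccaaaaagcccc
The COL5A1 window holds 2 GC boxes and 0 CCAAT boxes, and the COL5A3 window 0 GC boxes and 1 CCAAT box. Of 27305 promoters in the RefSeq table, 34.7% hold a GC box and 28.3% a CCAAT box in the same window, so both motifs are common. Of the other chains in that table, COL27A1 had 2 GC boxes, COL11A1 had 2 GC boxes and 1 CCAAT box, and COL24A1 had neither. COL1A1, COL1A2, COL2A1, COL3A1 and COL5A2 had no entry.

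COL3A1 (ENSG00000168542), the type III chain that accompanies type I in early scar, varied most among the chains with a mean above 5 CPM. It had 19.5, 27.2 and 35.4 CPM in libraries labelled AEBP1 siRNA 1, 2 and 3, against 36.5, 34 and 22.8 CPM in those labelled scrambled 1, 2 and 3. AEBP1 siRNA 3 lay among the high scrambled libraries and scrambled 3 among the low AEBP1 siRNA libraries, so the groups overlapped. Its estimate was -0.18 on the log2 scale (SE 0.243, 95% interval -0.74 to 0.38). Without replicate 3 of both groups it was -0.592 (SE 0.2, edgeR adjusted p = 0.967), and without AEBP1 siRNA 1 alone it was 0.0119. In FPKM, COL1A1 was 34.4 to 62 times as high as COL3A1.

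COL3A1 and COL5A2 are next to each other on chromosome 2 with no protein-coding gene between them in GENCODE 29, and they face each other tail to tail on opposite strands. Centred on its own mean, the log2 CPM of COL3A1 was -0.55, -0.063 and 0.32 in libraries labelled AEBP1 siRNA 1, 2 and 3, and 0.36, 0.26 and -0.32 in those labelled scrambled 1, 2 and 3. For COL5A2 it was -0.37, -0.018 and 0.13 in libraries labelled AEBP1 siRNA, and 0.16, 0.14 and -0.038 in those labelled scrambled. Both chains were thus above their mean in the same 3 libraries. The mean absolute difference between the profiles was 0.167, which placed COL5A2 at rank 369 of 11593 genes by likeness to COL3A1 and COL3A1 at rank 4736 by likeness to COL5A2. This measure counts the size of the changes as well as their direction. The range over the libraries was 0.904 for COL3A1 and 0.531 for COL5A2. COL27A1, on another chromosome, was nearer to both, at rank 291 to COL3A1 and 265 to COL5A2.

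COL27A1 (ENSG00000196739), on chromosome 9, a chain of the minor type XXVII, was at 22.2, 32.2 and 35.5 CPM in libraries labelled AEBP1 siRNA 1, 2 and 3, against 32.5, 34.7 and 29.8 CPM in those labelled scrambled 1, 2 and 3. AEBP1 siRNA 1 alone lay below the scrambled range. Its log2 fold change was -0.11 (SE 0.173, 95% interval -0.51 to 0.29), and without AEBP1 siRNA 1 the sign turned, to 0.0648. Leaving out replicate 3 of both groups gave -0.305 (edgeR adjusted p = 0.967). Of all pairs of tested chains, COL27A1 and COL5A2 had the most similar profiles, with a mean absolute difference of 0.0637 in log2 CPM.

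**Figure D3:**
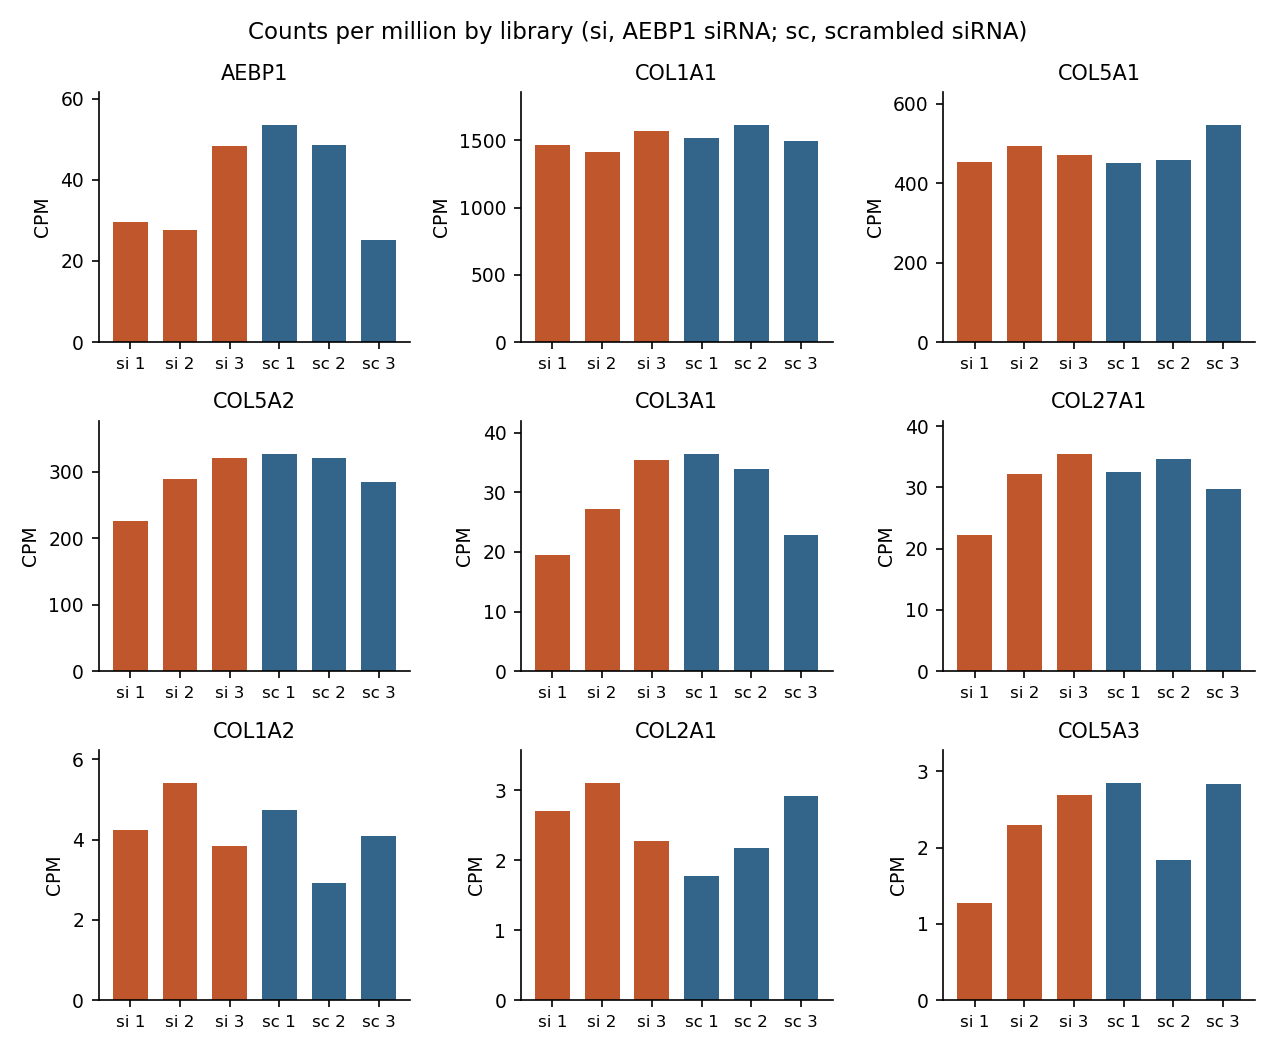
CPM of AEBP1 and 8 chains in each library (bars from 0; orange, AEBP1 siRNA 1 to 3; blue, scrambled siRNA 1 to 3). COL1A1 stays between 1413 and 1617 CPM, while AEBP1 and COL3A1 are high in AEBP1 siRNA 3 and low in scrambled 3, and COL2A1 is high in AEBP1 siRNA 2 and scrambled 3.

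The chains varied between libraries in part along with AEBP1, and so did other genes. The 3 libraries with the most AEBP1, namely AEBP1 siRNA 3, scrambled 1 and scrambled 2, were also the 3 highest for COL1A1, COL3A1, COL5A2, COL11A1 and COL27A1, or 5 of the 9 tested chains, beside 1593 (9.8%) of all 16250 genes tested. Some of these places were close: for COL27A1 scrambled 1 was at 32.5 CPM and AEBP1 siRNA 2 at 32.2 CPM. For COL1A1 scrambled 1 was at 1515 CPM and scrambled 3 at 1496 CPM. The place of COL11A1 rests on 60 counts over all libraries. For COL2A1 the same 3 libraries were the lowest, as for 8.91% of all genes tested. Scores on the second principal component of all genes, with 21.4% of the variance, were also positive in these libraries, at 17.8, 30 and 14.3, and -1.99, -34.1 and -26 in AEBP1 siRNA 1, AEBP1 siRNA 2 and scrambled 3. Since AEBP1 formed separate high and low sets of 3 libraries, no correlation with the chains is given and this split was not tested. The range over the 6 libraries varied: the highest was 1.87-fold above the lowest for COL3A1, 1.45-fold for COL5A2 and 1.14-fold for COL1A1. These ranges are not differences between the high and low AEBP1 sets. Between the sets, the nearest libraries were at 34 and 27.2 CPM for COL3A1, and at 320 and 289 CPM for COL5A2. COL3A1, COL5A2, COL5A3 and COL27A1 were each lowest in AEBP1 siRNA 1, the library apart on the first component, and the part of that library's state in their values was not tested.

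COL2A1 (ENSG00000139219), on chromosome 12, the main chain of cartilage fibrils, was present at a low level. It had 94, 117 and 94 counts in libraries labelled AEBP1 siRNA 1, 2 and 3, against 73, 107 and 128 counts in those labelled scrambled 1, 2 and 3, or 0.307 to 0.549 FPKM over all libraries. The groups overlapped, with an estimate of 0.23 on the log2 scale (SE 0.255, 95% interval -0.35 to 0.82). Without replicate 3 of both groups it was 0.556 (edgeR adjusted p = 0.967), and leaving out scrambled 1, AEBP1 siRNA 2 or scrambled 3 alone gave 0.0822, 0.119 and 0.447. Among cartilage genes, MATN3 was at 5.67 FPKM and SOX9, the transcription factor of chondrocytes that bile duct cells also make, at 3.68 FPKM, while ACAN was at 0.0286 FPKM. Summed FPKM of the 4 cartilage genes was 8.71 to 10.2 in libraries labelled AEBP1 siRNA and 9.01 to 9.64 in those labelled scrambled.

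COL11A1 (ENSG00000060718) and COL24A1 (ENSG00000171502), both on chromosome 1, were close to the floor. COL11A1, a chain of type XI collagen, had 2, 4 and 22 counts in libraries labelled AEBP1 siRNA 1, 2 and 3, against 10, 22 and 0 counts in those labelled scrambled 1, 2 and 3. Its counts were few and uneven within each group, and the 95% interval of its fold change ran from 0.167-fold to 6.22-fold. A difference of this transcript within those bounds could not be resolved. COL24A1 had 3, 4 and 9 counts in libraries labelled AEBP1 siRNA and 0 in each labelled scrambled. Set against a floor of 3 counts for the whole scrambled group, these 16 counts are 6.29-fold higher. That ratio takes the 16 counts as exact, so it covers neither their counting error nor the spread between libraries. It was the only chain whose groups did not overlap, a pattern shared by 2.69% of all rows with a count in that direction. It did not pass the filter on low counts, and with no filter its edgeR adjusted p was 0.993 (unadjusted p = 0.0298). Among 9 tested chains, 0 had groups that did not overlap, beside 5.93% of all genes tested in either direction.

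Among tested genes averaging 5 CPM or more, those with the profiles most like COL1A1 and COL11A1 were no collagens. For COL1A1 they were TEX10, DDB1 and RPAP1, with mean absolute differences of 0.00938, 0.0179 and 0.018 in centred log2 CPM over the 6 libraries. For COL11A1, the tested chain with the widest range, they were UBE2E2, RASA4 and CSF2, at 0.529, 0.562 and 0.567, and these distances rest on the 60 counts of COL11A1 over all libraries. Likeness in 6 libraries of 1 cell line is a description of these libraries. COL1A2, COL2A1 and COL5A3 averaged less than 5 CPM and could not appear. Few of the 11593 genes compared with COL1A1 are collagens, so their absence says little about the chains.

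Genes whose products fold, trim, crosslink and bind fibrillar collagen were not called between the labelled groups either. Of 59 such genes 47 were tested, 22 with higher and 25 with lower estimates in libraries labelled AEBP1 siRNA, and a median log2 fold change of -0.016. By edgeR 0 were called and 0 had an unadjusted p under 0.05, beside 1 and 216 of all 16250 genes tested. DESeq2 and limma-voom called 0, where they called 0.0277% and 0.0123% of all genes. Of 21 genes of procollagen folding, modification and export, 13 had higher and 8 lower estimates (median 0.023). PPIB, a prolyl isomerase of collagen folding, was at 181 FPKM ± 41 in libraries labelled AEBP1 siRNA and 161 FPKM ± 14.5 in those labelled scrambled (SD, n = 3 each). P4HB, a subunit of the prolyl hydroxylase that stabilises the helix, was at 154 FPKM ± 18.6 in libraries labelled AEBP1 siRNA and 140 FPKM ± 2.46 in those labelled scrambled. AEBP1 siRNA 1 was the highest library for both, at 227 FPKM for PPIB and 175 FPKM for P4HB. AEBP1 siRNA 2 and 3 were at 150 and 165 FPKM for PPIB and at 143 FPKM each for P4HB.

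Of 7 tested genes of propeptide removal, 4 had higher and 3 lower estimates (median 0.043). BMP1, which cuts the C-propeptide, was at 16 FPKM ± 0.482 in libraries labelled AEBP1 siRNA and 16.2 FPKM ± 1.33 in those labelled scrambled (SD, n = 3 each). Its enhancer PCOLCE was at 6.37 FPKM ± 0.346 in libraries labelled AEBP1 siRNA and 5.86 FPKM ± 0.431 in those labelled scrambled. Of the 5 lysyl oxidases, which crosslink fibrils, 2 had higher and 3 lower estimates (median -0.011). LOXL2 was the most abundant, at 91.8 FPKM ± 6.7 in libraries labelled AEBP1 siRNA and 91.8 FPKM ± 5.22 in those labelled scrambled. LOX was at 24.9 FPKM ± 3.14 in libraries labelled AEBP1 siRNA and 26.1 FPKM ± 0.457 in those labelled scrambled.

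**Figure D4:**
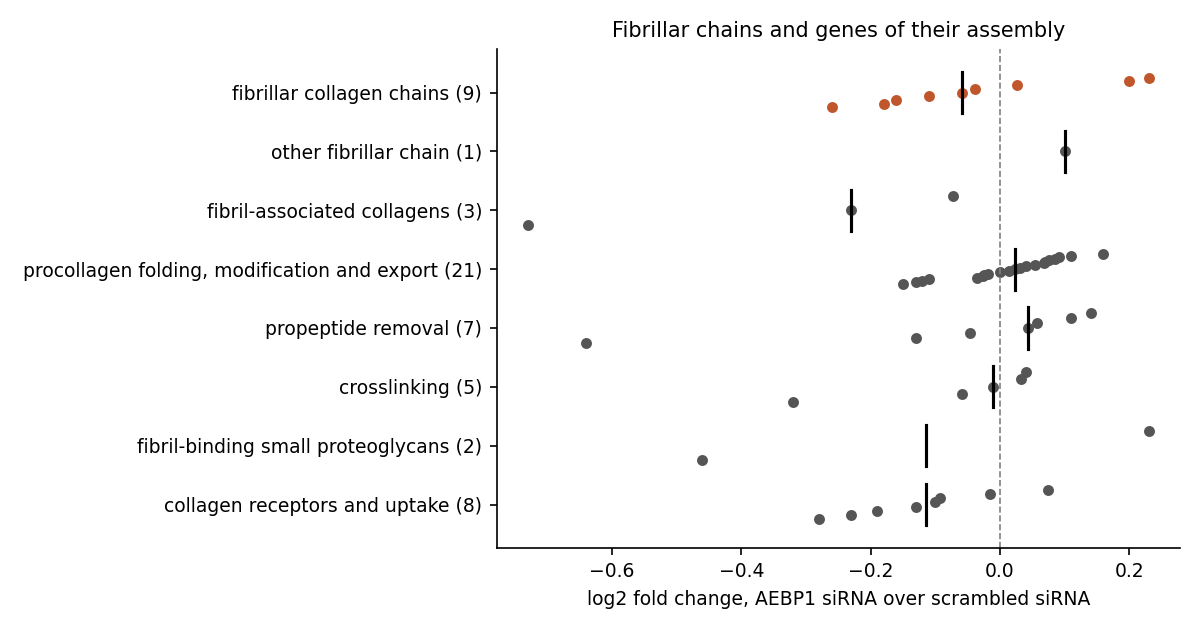
Log2 fold change, AEBP1 siRNA over scrambled siRNA, of the 9 tested fibrillar chains (orange) and of 47 tested genes of their assembly (grey), by role, with the number tested in brackets and a bar at each list's median. Medians lie between -0.23 for the 3 fibril-associated collagens and 0.10 for COL11A2, the single other fibrillar chain.

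Transcripts of most proteins that coat fibrils were scarce by contrast. Among fibril-associated collagens, which lie on the fibril surface, COL12A1 was at 20.6 FPKM ± 7.48 in libraries labelled AEBP1 siRNA and 23.8 FPKM ± 1.76 in those labelled scrambled (SD, n = 3 each). In AEBP1 siRNA 1 it was at 12 FPKM, against 23.5 and 26.1 FPKM in AEBP1 siRNA 2 and 3. COL16A1 was at 4.17 FPKM ± 0.49 in libraries labelled AEBP1 siRNA and 4.31 FPKM ± 0.358 in those labelled scrambled. The remaining 8 of that list were at 0.105 FPKM or less on average, and 3 of them had 0 counts. Of the small proteoglycans that bind fibrils, BGN was at 1.68 FPKM ± 0.209 in libraries labelled AEBP1 siRNA and 1.42 FPKM ± 0.222 in those labelled scrambled. OGN was at 0.0768 FPKM ± 0.0404 in libraries labelled AEBP1 siRNA and 0.108 FPKM ± 0.0456 in those labelled scrambled. DCN and LUM, which are abundant in most fibroblasts, had 11 and 17 counts over all 6 libraries, and FMOD and KERA had 0. Fibrillar COL11A2, which is not among the 10 chains, was at 3.4 FPKM ± 0.656 in libraries labelled AEBP1 siRNA and 3.07 FPKM ± 0.727 in those labelled scrambled, above its type XI partner COL11A1, with a log2 fold change of 0.10.

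Of 8 collagen receptors and uptake genes, 1 had a higher and 7 a lower estimate in libraries labelled AEBP1 siRNA (median -0.11). Over all 16250 genes tested, 8031 had a higher and 8219 a lower estimate. ITGB1, the beta subunit shared by the collagen-binding integrins, was at 211 FPKM ± 16.1 in libraries labelled AEBP1 siRNA and 212 FPKM ± 6.52 in those labelled scrambled. DDR2, a tyrosine kinase receptor for fibrillar collagen, was at 21.6 FPKM ± 5.76 in libraries labelled AEBP1 siRNA and 24.3 FPKM ± 1.71 in those labelled scrambled (SD, n = 3 each), with a log2 fold change of -0.19 and a 95% interval of -0.60 to 0.22. Within the AEBP1 siRNA group it was at 14.9 FPKM in library 1, against 25.3 and 24.4 FPKM in libraries 2 and 3.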

How the data were processed

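RNA of 6 LX-2 libraries, 3 per group as labelled, was analysed. The authors deposited raw counts and FPKM values per gene, per the file headers. Reads were placed on hg19, according to the submitters' processing notes. Aligner, counter, annotation, strandedness and filters are not named in the sources used here. Gene positions, neighbours and overlaps are from GENCODE 29 and promoter sequences from RefSeq, both on GRCh38, and were used without the files' coordinates. The table had 24789 rows with values, and 17 stray lines of annotation were dropped. Of 19974 Ensembl IDs, 19883 were in the name table.

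Counts were filtered with filterByExpr, scaled by trimmed mean of M values and tested for a group effect, with no other term, by edgeR's quasi-likelihood test (edgeR 4.0.16, R 4.3.3). P-values were adjusted by Benjamini-Hochberg over the 16250 genes that passed, and an adjusted p under 0.05 was a call. The standard error is the log2 fold change over the square root of F. The code of the test was checked on simulated counts. These were drawn independently for each library, and none stood apart as AEBP1 siRNA 1 did. The check therefore does not show what size of change could be found here. Counts of every pair of libraries differed beyond sampling noise, the lowest chi-square being 8.02 per degree of freedom. Levels between genes are compared by FPKM, which is per length. Alternatives were a replicate block, single libraries and replicate 3 of both groups left out (also with AEBP1 siRNA 1), other scalings and filters, DESeq2 1.42.0, limma-voom with limma 3.58.1, limma on log2 of FPKM plus 1 or 0.1, and a stricter threshold.

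The members and lists were chosen with earlier results of these data known. All 10 chains and AEBP1 were named, with the 2 most abundant genes of each companion list, the most abundant of each marker list, and the 3 genes with the lowest mean absolute difference in centred log2 CPM (prior count of 2) to COL1A1 and to the chain with the widest range, among genes averaging 5 CPM or more. Any further gene was picked with its values known. The most abundant epithelial and cholangiocyte marker was KRT7 at 8.18 FPKM. SOX9 of the same list was at 3.68 FPKM, while EPCAM, KRT19 and CDH1 had 9, 3 and 7 counts over all libraries. The most abundant endothelial marker was STAB2 at 0.0677 FPKM.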

Additional observations from a re-analysis of the deposited data

How the results depend on the processing

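Of the 9 tested chains, 0 were called under any alternative run. The lowest adjusted p-value in a fit with more than 1 library per group was 0.856 (edgeR, COL5A2 without AEBP1 siRNA 2). Among such fits, only COL3A1 had an unadjusted edgeR p under 0.05, without replicate 3 of both groups. Both replicates 3 were left out for their AEBP1 level, and COL3A1 was highest in the same 3 libraries as AEBP1. That p-value is thus no test of COL3A1, and the share of all genes under 0.05 in that fit is not given. COL1A1, COL1A2, COL2A1, COL5A2 and COL5A3 kept their direction under every alternative in which they were fitted, which for COL1A2, COL2A1 and COL5A3 leaves out the filter on a mean of 5 CPM. Over all genes, of which 1 was called in the reported fit, DESeq2 called 6, limma-voom 2, log2(FPKM + 0.1) 3, no filter 3, the replicate block 2 and an adjusted p under 0.01 gave 0. Leaving out single libraries gave 0 to 2, and AEBP1 at -0.567 to -0.066. With both replicates 3 and AEBP1 siRNA 1 left out, 249 genes (1.46%) were called and AEBP1 was at -0.884 (edgeR adjusted p = 0.00536), against -0.835 (edgeR adjusted p = 0.378) without replicate 3 of both groups alone. Both replicates 3 were left out for their AEBP1 level, so these values describe AEBP1 in the libraries kept and do not test it. That fit has 1 library on one side, whose spread is taken to equal that of the scrambled libraries.

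Leaving out single libraries gave log2 fold changes of -0.412 to 0.0119 for COL3A1, 0.0249 to 0.362 for COL1A2, 0.0822 to 0.447 for COL2A1, -0.273 to -0.0301 for COL5A2, -0.49 to -0.00606 for COL5A3, -0.103 to -0.0225 for COL1A1, -0.09 to 0.0565 for COL5A1, -0.251 to 0.0648 for COL27A1 and -1.46 to 0.959 for COL11A1, and a median over the chains of -0.251 to 0.0119. COL5A1 was at 0.0594 without replicate 3 of both groups and at 0.121 when AEBP1 siRNA 1 was dropped too. COL11A1 was at -0.113 with the replicate block, -0.00675 and -0.000286 with log2(FPKM + 0.1) and log2(FPKM + 1), and -1.68 with both replicates 3 and AEBP1 siRNA 1 left out. The cause was not tested for these changes of sign. By CPM in place of FPKM, the mean COL1A1 to COL1A2 ratio was 377 in place of 304. No pairing by replicate number was seen: deviations of same-numbered libraries from their group means correlated at 0.0961, -0.00776 and -0.102 and only 2 of 6 libraries correlated best with their own number. The group means were taken as labelled, and AEBP1 in replicate 3 went against the labels, so this cannot exclude a pairing. COL11A1 and COL24A1, with 60 and 16 counts over all libraries, cannot be compared with any precision.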
